A study of Homo sapiens with 4 samples.

Results

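The genes described here are 9 that serve the presentation of peptides on MHC class I molecules: HLA-B, HLA-C, HLA-E, HLA-F, B2M, TAP1, TAP2, TAPBP and NLRC5. They were taken by symbol from the 63677 rows of the deposited table, in which the 9 symbols occur 51 times. Genes of the MHC are repeated there on alternative haplotypes of the human reference. For each symbol the row with the highest mean over the libraries was kept, which left out 42 rows. Of those, 41 held no read in any library, and the remaining one, a second TAP2 row, held between 4 and 11 reads per library. The cells were MDA-MB-231, a long-established line from a human breast tumour that lacks hormone receptors and has high AXL, a receptor tyrosine kinase. They received a control siRNA (siCt, 2 libraries) or a pool of siRNAs against AXL (siAXL, written siAxl in the labels, 2 libraries), both delivered with a cationic lipid. No other treatment is named for these libraries, and the time between transfection and lysis is not given in the sources used here. The labels name MDA-MB-231, whereas the culture methods of the study name MDA-MB-231-Luc, a form engineered to express luciferase. Which of them was sequenced is not stated.

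MHC class I molecules carry short peptides from inside the cell to its surface, where cytotoxic T cells and natural killer cells inspect them. Each molecule consists of a heavy chain, encoded by genes such as HLA-B and HLA-C or by the less variable HLA-E and HLA-F, and of the invariant light chain beta-2 microglobulin, encoded by B2M. TAP1 and TAP2 form the transporter that pumps peptides from the cytosol into the endoplasmic reticulum, and tapasin, the product of TAPBP, bridges the transporter to an empty class I molecule and helps it select a peptide. NLRC5 is the transactivator that assembles on a conserved upstream module of class I genes, and its counterpart for class II genes is CIITA. Interferons raise the transcription of most of these genes.

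Each library held between 39574387 and 44585773 reads, and the 9 genes had between 423 reads (HLA-F in siCt 1) and 45029 reads (B2M in siAXL 2). AXL, the targeted gene, was at 26.4% of its siCt mean in siAXL (log2 fold change -1.93 with a standard error, SE, of 0.0918; adjusted p = 0.000585 by limma). Among 8 immune cell markers, 3 were at 0 in every library, MS4A1 and NKG7 among them, and none had a mean above 88.94 normalized counts. The summed level of the 8 immune cell markers ran from 107 to 117 in siCt and from 122 to 151 in siAXL. The libraries came from a cultured cell line, and the source of these low marker counts was not tested. Of the cell line's own markers, all 7 had means of at least 11050, and ESR1 and PGR, the hormone receptor genes, had at most 3.25 normalized counts in any library. These belong to a list of 5 receptor and epithelial genes expected low. The other 3 (ERBB2, CDH1 and EPCAM) passed the filter on low counts, and the highest mean in the list was 3314. The list summed to 3745 and 3672 normalized counts in siCt and to 4431 and 4332 in siAXL. The labels do not say whether the libraries came from separate cultures, so p-values measure the spread between these libraries only, which may be technical. In a bulk culture, fewer cells with a transcript and less transcript per cell cannot be told apart. HLA genes are highly variable between people and resemble each other, and how reads that match several of them were assigned is not given in the sources used here, so the values of HLA-B, HLA-C, HLA-E and HLA-F are uncertain in that respect.

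The stretches before the transcription start of these genes are shown because the members sit on several chromosomes (chromosome 6 for 7 of them, chromosome 15 for B2M and chromosome 16 for NLRC5) and share regulators. The RefSeq promoter table, on build GRCh38.p14, held windows for 7 of the 9 symbols. HLA-E and NLRC5 had no window in it. Of each window the 250 bases before the start were searched on both strands for 4 motifs: the core of the interferon-stimulated response element (GAAA, any 2 bases, then GAAA again), the gamma-activated site TTCNNNGAA, the CCAAT box, and TGACG, which is part of the cyclic AMP response element. The response element core was found before 5 of the 7 genes (HLA-F, B2M, TAP1, TAP2 and TAPBP), against 3.02% of the 35116 windows in the table. Only exact matches were counted, so HLA-B and HLA-C, which had none, may still hold a variant of this core. The shares are of windows rather than genes, and TAP1 had 2 windows. CCAAT was found before 5 of the 7 genes (32.0% of all windows), TGACG before 4 (21.2%) and TTCNNNGAA before 1 (6.57%), which was the second listed start of TAP1. The windows of HLA-C (chr6:31272093-31272342), TAPBP (chr6:33314079-33314328), TAP2 (chr6:32838740-32838989) and the first listed start of TAP1 (chr6:32853705-32853954) are printed 5′ to 3′, all from genes on the minus strand, with the motif matches in capitals. They were picked because HLA-C and TAPBP were called higher in siAXL, while TAP1 and TAP2, the subunits of one transporter, had changes of opposite sign.
HLA-C: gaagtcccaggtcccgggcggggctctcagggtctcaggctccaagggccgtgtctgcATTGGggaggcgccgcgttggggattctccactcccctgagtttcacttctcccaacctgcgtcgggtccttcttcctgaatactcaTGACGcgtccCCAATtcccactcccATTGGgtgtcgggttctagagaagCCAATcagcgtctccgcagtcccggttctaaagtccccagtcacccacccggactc
TAPBP: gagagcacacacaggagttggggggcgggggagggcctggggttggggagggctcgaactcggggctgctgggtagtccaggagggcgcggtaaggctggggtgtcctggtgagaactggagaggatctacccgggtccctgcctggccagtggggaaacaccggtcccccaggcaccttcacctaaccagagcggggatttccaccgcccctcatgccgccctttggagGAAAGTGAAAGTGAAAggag
TAP1: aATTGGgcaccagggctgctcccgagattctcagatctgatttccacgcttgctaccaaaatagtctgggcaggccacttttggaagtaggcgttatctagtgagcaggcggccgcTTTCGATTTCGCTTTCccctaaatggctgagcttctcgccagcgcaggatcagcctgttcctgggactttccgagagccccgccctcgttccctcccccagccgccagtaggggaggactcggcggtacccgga
TAP2: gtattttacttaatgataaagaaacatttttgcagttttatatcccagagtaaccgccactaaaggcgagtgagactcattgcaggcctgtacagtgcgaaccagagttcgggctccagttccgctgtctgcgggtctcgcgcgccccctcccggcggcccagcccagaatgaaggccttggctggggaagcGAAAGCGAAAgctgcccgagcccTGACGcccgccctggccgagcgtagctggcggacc
In HLA-C the TGACG match began 105 bases before the start and a CCAAT match 56 bases before it, and HLA-B carried the same pair at 106 and 56 bases. In TAPBP a pair of overlapping response element cores began 20 and 14 bases before the start, and in TAP1 at 134 and 128 bases. TAP2 had a single core 58 bases before its start. Among the genes with an exact match of the core, TAPBP was called higher in siAXL and HLA-F, B2M, TAP1 and TAP2 were not called. A match of letters describes the sequence and does not show that a factor binds there.

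Levels between genes are compared as RPKM, which divides reads by transcript length and library size, with the length of the longest principal protein-coding transcript in GENCODE 29. On this scale B2M (541 ± 43.8, SD, n = 2) and HLA-B (485 ± 32.9) led in siCt, followed by HLA-C (255 ± 7.19), TAPBP (224 ± 3.74) and HLA-E (126 ± 2.88). TAP1 (44.2 ± 2.85) and TAP2 (37.5 ± 1.4) formed a lower tier, and NLRC5 (7.49 ± 0.521) and HLA-F (6.21 ± 0.513) were lowest. The light chain and the classical heavy chains were therefore the most abundant class I transcripts per length and the transactivator was among the least. In siAXL the order was the same down to TAP2, but HLA-F (6.72 ± 0.0416) came before NLRC5 (5.82 ± 0.0487). B2M and HLA-B did not differ beyond their spread in siAXL (546 and 593 for B2M in the 2 libraries, 550 and 577 for HLA-B), and in siCt both B2M values lay above both HLA-B values (510 and 572, against 462 and 508), the nearest pair being close. The other neighbours in the order did not overlap between libraries of a group. By mean normalized count, B2M lay above 99.5% of the tested genes and HLA-F above 39.7%.

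**Figure D1:**
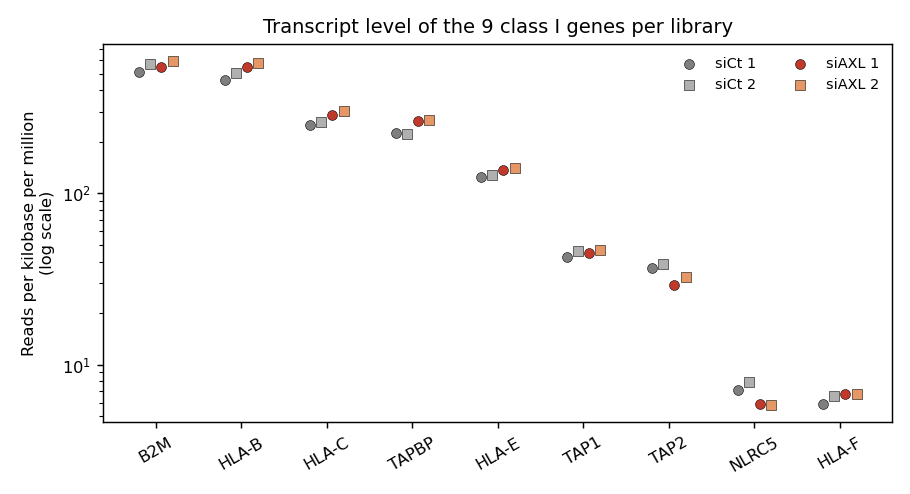
RPKM, reads scaled to transcript length and library size (log axis), of the 9 genes in the 4 libraries, ordered by the siCt mean; each point is 1 library. The genes span from B2M at 510 to 593 down to NLRC5 and HLA-F between 5.79 and 7.86.

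The heavy chain transcripts lay higher in each siAXL library than in any siCt library, by 10.5% to 18.5% on the means. Among all tested genes 30.6% had both siAXL libraries above both siCt libraries. Of the heavy chains HLA-C alone passed the test over all genes. HLA-C, a classical heavy chain that also serves as a ligand of inhibitory receptors on natural killer cells, stood at 16315 and 17144 normalized counts (siCt 1 and 2) and at 19105 and 20278 (siAXL 1 and 2). It rose from 16729 ± 587 to 19692 ± 830 (SD, n = 2 in each), or by 0.23 on the log2 scale (SE 0.0599, limma adjusted p = 0.0362). Leaving out a library leaves 1 in its group, which is then assumed to vary like the other group, so passes and losses in such fits rest on less data. The call of HLA-C was lost without siCt 1 (log2 fold change 0.20, limma adjusted p = 0.131), without siAXL 1 (0.28, adjusted p = 0.0797) and without siAXL 2 (0.19, adjusted p = 0.191). HLA-B, the most abundant heavy chain, had 30336 and 33724 normalized counts in siCt 1 and siCt 2, and 36824 and 39087 in siAXL 1 and siAXL 2. The groups did not overlap, and the siAXL mean was 118% of the siCt mean. Its log2 fold change of 0.25 (SE 0.0720) just missed the threshold (limma adjusted p = 0.0550), as it did in edgeR with DESeq2 size factors (adjusted p = 0.0543). It passed with TMM scaling, in limma (adjusted p = 0.0471) and in edgeR (adjusted p = 0.0368), and in DESeq2 (adjusted p = 0.0190). Without siCt 2 it also passed (0.32, limma adjusted p = 0.0287), and without siCt 1 the value was 0.17 (adjusted p = 0.274).

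HLA-E, which presents peptides from the leader sequences of other class I chains to NKG2A and NKG2C receptors, had 13688 and 14276 normalized counts in siCt and 15422 and 15999 in siAXL. Its groups did not overlap, with a log2 fold change of 0.17 (SE 0.0557, limma adjusted p = 0.0780), and it passed the threshold in edgeR with TMM (adjusted p = 0.0451) but not in edgeR with DESeq2 size factors (adjusted p = 0.0787) or in DESeq2 (adjusted p = 0.0939). HLA-F, a nonclassical chain found largely inside the cell, was the scarcest member by normalized count, with 406 and 460 in siCt and 474 and 483 in siAXL. Its libraries did not overlap either, yet the log2 fold change of 0.15 had a 95% confidence interval from -0.085 to 0.38 (limma adjusted p = 0.342). HLA-F shares 535 exonic bases with the antisense gene HLA-F-AS1 in GENCODE 29 (45.5 reads per library, 457 for HLA-F). B2M, the light chain that every heavy chain needs, had 36905 and 41794 normalized counts in siCt and 40324 and 44246 in siAXL. Here the groups overlapped, since siAXL 1 lay below siCt 2. Its log2 fold change was 0.11 with an interval from -0.087 to 0.30 (limma adjusted p = 0.417), so a rise of the size seen in HLA-C lay within what these libraries allow.

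**Figure D2:**
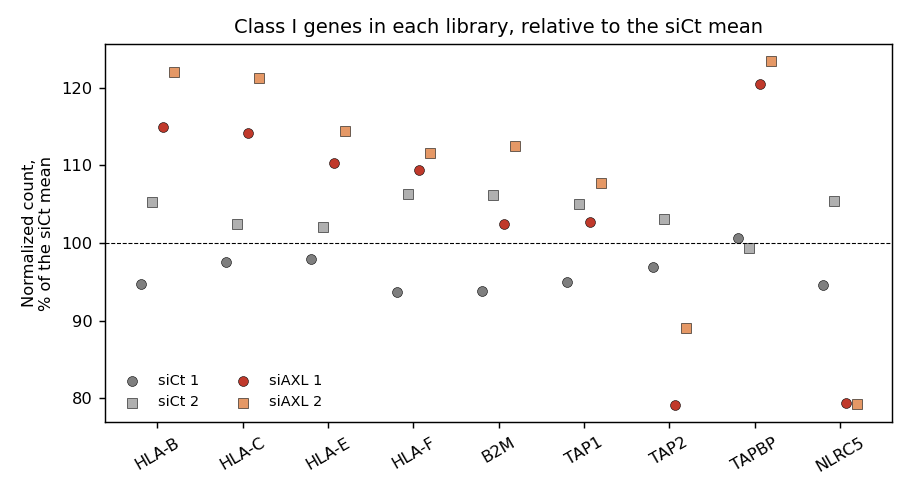
Normalized counts of each gene in each library as a percent of its siCt mean (dashed line at 100%), with circles for replicate 1 and squares for replicate 2. The siAXL libraries lie above both siCt libraries for HLA-B, HLA-C, HLA-E, HLA-F and TAPBP, below both for TAP2 and NLRC5, and among them for B2M and TAP1. Of all tested genes, 30.6% lay above both siCt libraries and 30.5% below both.

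Of TAP1, TAP2 and TAPBP, the transporter and chaperone genes among the members, TAPBP alone was called in limma. TAPBP, which encodes tapasin, was the member with the largest rise, from 18145 and 17895 normalized counts in siCt 1 and siCt 2 to 21705 and 22237 in siAXL 1 and siAXL 2. The pairs of libraries were close to each other, at 18020 ± 177 and 21971 ± 376 (SD, n = 2 in each), and lay far apart between groups. The log2 fold change was 0.29 (SE 0.0534, limma adjusted p = 0.0140), a siAXL mean of 122% of siCt. Its size held at 0.27 to 0.30 with each library left out, although the call was lost without siAXL 1 (adjusted p = 0.0564) and without siAXL 2 (adjusted p = 0.0763). TAP1, the transporter subunit whose gene lies beside that of an immunoproteasome subunit, had 5306 and 5868 normalized counts in siCt and 5737 and 6016 in siAXL. The groups overlapped, and the log2 fold change was 0.074 (95% confidence interval -0.083 to 0.23, limma adjusted p = 0.487). TAP1 shares 456 exonic bases with the antisense gene PSMB8-AS1 (275 reads per library, 5744.5 for TAP1).

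TAP2, the other transporter subunit, pointed the opposite way, with 3869 and 4118 normalized counts in siCt and 3159 and 3556 in siAXL. The groups did not overlap, and the siAXL mean was 84.1% of the siCt mean. The log2 fold change of -0.25 (SE 0.0737) was just short of the threshold in limma (adjusted p = 0.0550) and in edgeR with TMM (adjusted p = 0.0503), and past it in DESeq2 (adjusted p = 0.0425). It passed in limma without siCt 1 (-0.30, adjusted p = 0.00892) and without siAXL 2 (-0.34, adjusted p = 0.0422), and was -0.17 without siAXL 1 (adjusted p = 0.283). A ratio of both subunits within a library does not depend on scaling. For every 100 TAP1 reads the siCt libraries held 72.9 and 70.2 TAP2 reads, and the siAXL libraries held 55.1 and 59.1. The ratio did not overlap between the groups (two-sided exact permutation p = 0.333, the smallest that 2 libraries against 2 can give).

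NLRC5, the class I transactivator, fell. Its normalized counts were 2064 and 2299 (siCt 1 and 2) and then 1731 and 1729 (siAXL 1 and 2). The siAXL libraries were nearly equal, both below the siCt libraries, and the mean went from 2181 ± 167 to 1730 ± 0.944 (SD, n = 2 in each), a decrease to 79.3% of siCt. The log2 fold change was -0.33 (SE 0.0712, limma adjusted p = 0.02195, edgeR adjusted p = 0.0228, DESeq2 adjusted p = 0.00788). The call was lost without siCt 2 (-0.25, limma adjusted p = 0.0565), siAXL 1 (-0.33, adjusted p = 0.0730) and siAXL 2 (-0.33, adjusted p = 0.0679). NLRC5 and HLA-C were thus called in opposite directions. Per 100 HLA-B reads there were 6.80 and 6.82 NLRC5 reads in the siCt libraries and 4.70 and 4.42 in the siAXL libraries (two-sided exact permutation p = 0.333). The reads of HLA-B, HLA-C, HLA-E and HLA-F together numbered 165 and 157 per 100 B2M reads in siCt and 178 and 171 in siAXL (two-sided exact permutation p = 0.333).

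**Figure D3:**
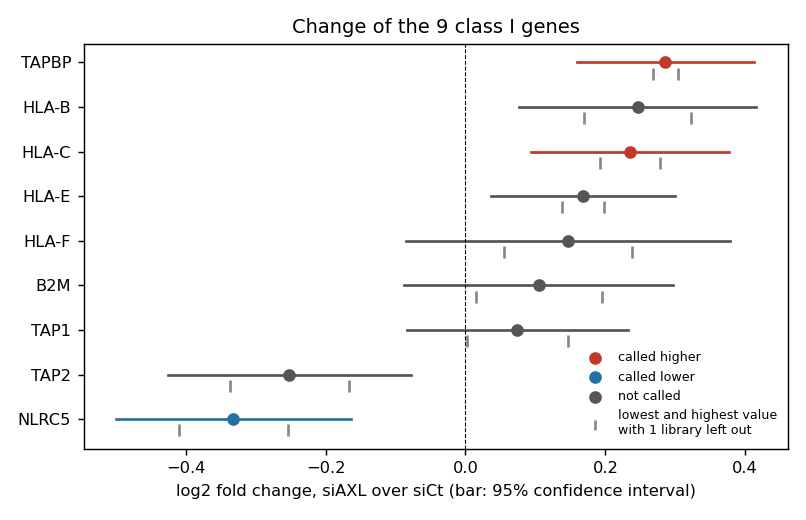
Log2 fold change of siAXL over siCt for the 9 genes with 95% confidence intervals from limma, coloured by the call at an adjusted p under 0.05; grey ticks give the lowest and highest value with 1 library left out. TAPBP and HLA-C were called higher and NLRC5 lower, and no gene changed sign when a library was left out.

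All 9 genes were among the 16064 tested, so no member was lost to the filter on low counts. At a limma adjusted p under 0.05, 2 were higher in siAXL (HLA-C and TAPBP) and 1 was lower (NLRC5), 3 of 9 in all, while 18.7% of all tested genes were called, 10.8% higher and 7.91% lower. With edgeR on the recovered reads and TMM scaling 5 of the 9 were called (HLA-B, HLA-C, HLA-E, TAPBP and NLRC5) against 19.4% of all genes. With edgeR and DESeq2 size factors the same 3 as in limma were called against 18.8%, and with DESeq2 5 (HLA-B, HLA-C, TAP2, TAPBP and NLRC5) against 20.1%. The siAXL libraries lay above both siCt libraries in 5 members and below both in 2, against 30.6% and 30.5% of all tested genes. The median log2 fold change of the members was 0.15 and that of all tested genes -0.0022, and the median size of a change regardless of sign was 0.17 over all tested genes. The members' own changes had sizes from 0.074 to 0.33. Under scaling by library size alone the split of all calls shifted from 57.7% higher (1735 higher, 1271 lower) to 46.8% higher (1536 and 1745), and the members called were HLA-C, TAPBP, NLRC5 and TAP2, with no change of direction. The members took 0.299% and 0.321% of all reads in the siCt libraries and 0.334% and 0.351% in the siAXL libraries.

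Genes that supply peptides and load them in the endoplasmic reticulum were taken from a list of 12, all tested, of which 3 were called higher and 0 lower with limma. Of all tested genes, 10.8% were called higher and 7.91% lower. At an unadjusted p under 0.05, 1 of the 12, PSMB8, was lower, and edgeR with TMM and DESeq2 each called 4 of the 12 higher and 0 lower. The 3 called by limma were PDIA3, which encodes the oxidoreductase ERp57 of the peptide-loading complex, CALR, which encodes the chaperone calreticulin of the same complex, and ERAP1, an aminopeptidase that trims peptides in the endoplasmic reticulum. PDIA3 had 13678 and 14126 normalized counts in siCt and 17831 and 18932 in siAXL, with no overlap (log2 fold change 0.40, SE 0.0578, limma adjusted p = 0.00611). CALR had 42654 and 47224 in siCt and 54795 and 60925 in siAXL (0.36, SE 0.0804, adjusted p = 0.0238). ERAP1 had 4140 and 4667 in siCt and 5243 and 5925 in siAXL (0.34, SE 0.0835, adjusted p = 0.0319). CANX, the chaperone calnexin, named after its values were seen, had 65697 and 67478 in siCt and 73590 and 79416 in siAXL, with no overlap. It was not called in limma (0.20, SE 0.0674, adjusted p = 0.0826) or in edgeR with DESeq2 size factors (adjusted p = 0.0728), and was called higher by edgeR with TMM (adjusted p = 0.0387) and by DESeq2 (adjusted p = 0.0385). CALR lost its call without siCt 1 or siAXL 2 (0.29 in each case), and ERAP1 without siAXL 2 (0.25). Among those not called the largest value was that of PSMB8, an inducible proteasome subunit, with 3280 and 3773 in siCt and 2822 and 3112 in siAXL (-0.25, SE 0.0846, adjusted p = 0.0848). It passed the threshold without siCt 1 (-0.35, adjusted p = 0.00198). The list's median was 0.037.

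Of 25 genes that regulate class I transcription, all tested, 2 were called higher and 5 lower, with a median log2 fold change of 0.0097. Of all tested genes, limma called 10.8% higher and 7.91% lower. CIITA, the class II transactivator that can also act on class I genes, fell furthest, from 1501 and 1651 normalized counts in siCt to 1007 and 1061 in siAXL (log2 fold change -0.61, SE 0.0757, limma adjusted p = 0.00396). NFYC, a subunit of the factor that binds CCAAT boxes, fell from 2443 and 2437 to 1897 and 1906 (-0.36, SE 0.0569, adjusted p = 0.00836). EZH2, a histone methyltransferase of a repressive complex, fell from 3601 and 3356 to 2674 and 2853 (-0.33, SE 0.0653, adjusted p = 0.0166). IRF1, a transcription factor that binds interferon-stimulated response elements, fell from 3054 and 3191 to 2583 and 2506 (-0.30, SE 0.0583, adjusted p = 0.0169). The remaining lower gene, RFX5, named after its values were seen, encodes a subunit of the factor that binds the X box of MHC genes and went from 4519 and 4492 to 3796 and 3813 (-0.24, SE 0.0525, adjusted p = 0.0221). In none of these 5 genes, which were picked by their call, did the libraries of the groups overlap. Among all tested genes 30.5% had both siAXL libraries below both siCt libraries. The list holds both activators and repressors, and the 5 lower genes were activators (CIITA, IRF1, RFX5, NFYC) and a repressor (EZH2). NFYC and RFX5 are single subunits of their factors. The other subunits in the list (NFYA, NFYB, RFXAP and RFXANK, named after their values were seen) were not called.

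The regulators called higher were chains of interferon receptors. IFNAR1, of the type I receptor, had 2889 and 2976 normalized counts in siCt and 3550 and 3665 in siAXL (log2 fold change 0.30, SE 0.0562, limma adjusted p = 0.0144). IFNGR2, of the interferon gamma receptor, had 2901 and 2805 in siCt and 3409 and 3778 in siAXL (0.33, SE 0.0679, adjusted p = 0.0188). IFNAR2, the partner chain of IFNAR1, had 605 and 678 in siCt and 522 and 535 in siAXL and was not called (-0.28, SE 0.0904, adjusted p = 0.0744). It passed without siCt 1 (-0.36, adjusted p = 0.0246). The calls of IFNAR1 and IRF1 were lost without siAXL 1 (0.32 and -0.32) and without siAXL 2 (0.28 and -0.27), that of IFNGR2 without siAXL 2 (0.26) and that of EZH2 without siAXL 1 (-0.28). RFX5 lost its call without siAXL 1 (-0.24) or siAXL 2 (-0.25). The calls of CIITA and NFYC held with each library left out, at -0.68 to -0.54 for CIITA and -0.36 in each case for NFYC.

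A list of 18 genes commonly induced by interferons held 2 called higher and 1 called lower, with a median of -0.045, a share near the 18.7% of all tested genes. IFI44 went from 555 and 480 normalized counts in siCt to 732 and 778 in siAXL (log2 fold change 0.55, SE 0.0977, limma adjusted p = 0.0121). BST2, the membrane protein tetherin, went from 2714 and 2883 to 3442 and 3715 (0.35, SE 0.0655, adjusted p = 0.0136). GBP1, a guanylate-binding protein strongly induced by interferon gamma, went the other way, from 2802 and 2904 to 2365 and 2412 (-0.26, SE 0.0574, adjusted p = 0.0248). IFIT1 had the largest value among those not called, with 1326 and 1390 in siCt and 1061 and 1184 in siAXL (-0.28, SE 0.0785, adjusted p = 0.0504), and passed with edgeR and TMM (adjusted p = 0.0477), not with DESeq2 (adjusted p = 0.0678), and without siCt 1 (-0.31). BST2 lost its call without siAXL 2 (0.30), and GBP1 without siCt 2 (-0.23), siAXL 1 (-0.24) or siAXL 2 (-0.27).

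**Figure D4:**
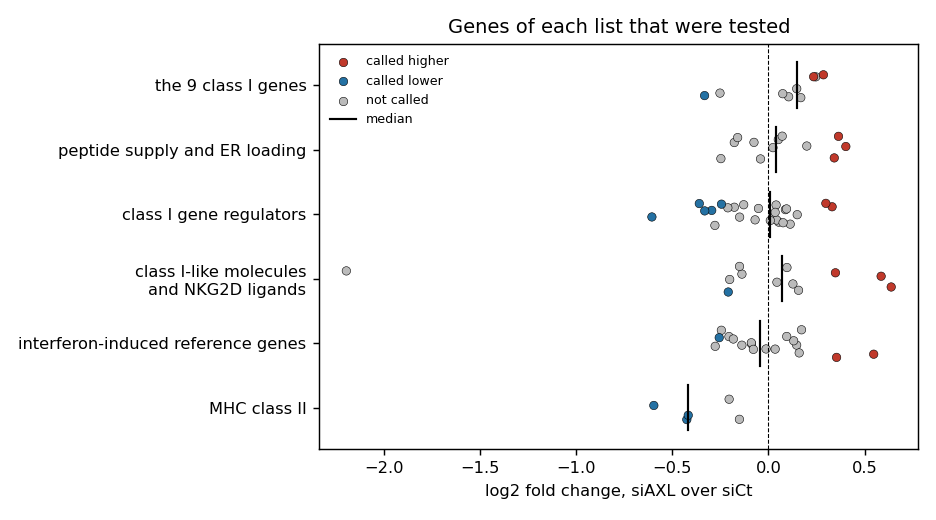
Log2 fold change of siAXL over siCt for each tested gene of the 9 class I genes and of 5 lists, with a black line at each median and colours for the call. The class II genes lie below 0 throughout, while each other list holds called genes in both directions or, for peptide supply and loading, in the upward direction; the point near -2.2 is AZGP1, which had at most 20.1 normalized counts.

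Molecules that resemble class I chains, or that the receptor NKG2D of natural killer cells recognizes, made a list of 14, of which 12 were tested, 3 called higher and 1 lower (median 0.070). Among all tested genes the shares were 10.8% higher and 7.91% lower. FCGRT, the heavy chain of the neonatal Fc receptor, which pairs with B2M, had 922 and 917 normalized counts in siCt and 1424 and 1339 in siAXL (log2 fold change 0.59, SE 0.0693, limma adjusted p = 0.00348), and its call held with each library left out. The NKG2D ligands MICA and MICB, close relatives within the MHC, differed in sign. MICB had 4509 and 4227 in siCt and 5396 and 5726 in siAXL (0.35, SE 0.0617, adjusted p = 0.0118). MICA had 4187 and 4214 in siCt and 3589 and 3679 in siAXL (-0.21, SE 0.0536, adjusted p = 0.0368, DESeq2 adjusted p = 0.0519). RAET1G, another NKG2D ligand, had only 84.4 and 93.2 in siCt and 132 and 145 in siAXL (0.64, SE 0.150, adjusted p = 0.0284, DESeq2 adjusted p = 0.0919). MICA lost its call without any one of the libraries, at -0.23 to -0.19. MICB lost it without siAXL 2 (0.31), and RAET1G without siAXL 1 (0.71) or siAXL 2 (0.57). AZGP1, a soluble relative of class I chains, had 20.1 and 16.3 in siCt and 7.77 and 0.983 in siAXL and was not called (adjusted p = 0.0673), but passed without siCt 1, siCt 2 or siAXL 1 (-2.05, -2.34 and -3.27).

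The class II pathway was looked at as a neighbour under CIITA. Of 5 class II genes, all tested, 3 were called lower and 0 higher with limma, edgeR and DESeq2 alike. Of all tested genes, limma called 7.91% lower and 10.8% higher. All 5 class II genes had both siAXL values below both siCt values, as did 30.5% of all tested genes. Their log2 fold changes ran from -0.60 to -0.15 (median -0.42). The 3, named after their values were seen, were HLA-DMB, HLA-DPA1 and HLA-DRA. HLA-DRA, the invariant alpha chain of HLA-DR, had 6242 and 6827 normalized counts in siCt and 4502 and 5255 in siAXL (log2 fold change -0.42, SE 0.0856, limma adjusted p = 0.0179). The summed level of the 5 genes was 34316 and 34866 in siCt and 28166 and 31033 in siAXL. HLA-DRA and HLA-DPA1 lost their calls without siAXL 1 (-0.31 and -0.32), and that of HLA-DMB held with each library left out. In the same libraries HLA-C rose while NLRC5 and CIITA, the transactivators of both classes, fell. The difference between the classes was not tested.

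Relative to its own mean on the log2 scale, the median profile of the 9 members stood at -0.13 and 0.018 for the siCt libraries, then at 0.058 and 0.11 for the siAXL libraries. The 5 genes whose centred values over the 4 libraries came nearest to it, by Euclidean distance, were ARID5B (distance 0.031), FAM134C (0.032), UBR1 (0.032), TP53BP1 (0.033) and ARHGAP32 (0.034). Their log2 fold changes ran from 0.13 to 0.15, and none was called (limma adjusted p = 0.193 to 0.278). With 4 libraries many genes can lie this close to such a shallow profile.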

How the data were processed

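RNA from the 4 libraries was sequenced on an Illumina instrument, and the submitters' processing notes name CASAVA 1.8, TopHat2 2.0.10, HTSeq 0.5.3, DESeq2 1.4.5 and GRCh37. The annotation release, the strand setting and the treatment of reads that match several genes are not given in the sources used here. The deposited signal is a normalized count, made by the authors by dividing reads per gene by a size factor of the library. The log2 fold changes, standard errors, Wald scores, p-values and adjusted p-values that the authors deposited were not used.

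Divided by the value of 1 read, 100% of the entries came out whole (tolerance 0.001), which gave the reads back. Of 63677 genes, 16064 passed edgeR's filterByExpr on these reads. The main test was limma 3.58.1 in R 4.3.3 on log2(normalized count + 1), with an intensity trend, with Benjamini-Hochberg adjustment over all tested genes and calls at an adjusted p under 0.05. Fold changes are on this scale and understate changes of low genes. The design had planned a count test, so edgeR 4.0.16 and DESeq2 1.42.0 on recovered reads served as alternatives, beside other scalings, pseudocounts, filters, left-out libraries, a replicate block and a threshold of 0.01. The fits were also run on simulated counts, with the same fixed spread for all genes and larger changes than those of the members. That run therefore does not bear on the calls made here. Single ratios were compared by a two-sided exact permutation test.

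The 9 genes and all lists were chosen with earlier results of these data known. The text names every member and, per list, up to 4 called genes in each direction, taken by smallest adjusted p, and the gene that was not called with the largest change. Libraries of a group were not duplicates, with a chi-square per gene of 21.9 for siCt and 19.7 for siAXL. Transcript lengths and overlaps came from GENCODE 29 and promoter windows from RefSeq on GRCh38.p14, whose coordinates are those of that build and not of the deposited table.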

Additional observations from a re-analysis of the deposited data

Results flagged for a closer look

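A second row carries the symbol TAP2, under the Ensembl identifier ENSG00000250264, and was left out of every comparison because the row kept for TAP2 is far more abundant. It held 29 reads over the 4 libraries, more than the 3 that a count of 0 allows, which is why it is listed here. In GENCODE 29 this gene lies on the same strand as TAP2 and shares 2064 exonic bases with it, and it had 7.25 reads per library against 3677 for TAP2. How reads in the shared bases were assigned, or whether they were counted, is not given in the sources used here. The level of TAP2 is uncertain in that respect. Adding all rows of a symbol together left the members called at 3.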

How the results depend on the processing

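None of the 34 named genes changed sign under the alternatives run, while among 85 list and marker genes 22 did so with a library left out, 0 of them called in limma. The split of all calls turned from 57.7% to 46.8% higher under library size scaling. Of 3006 genes and 3 members called, upper quartile scaling gave 5 members, edgeR with TMM 5 and DESeq2 5 (and 2 rather than 4 of the class I-like list). Testing every gene with at least 1 read gave 1097 genes, 1 member, and 1, 3, 1 and 0 genes of the lists for peptide supply, regulators, class I-like molecules and interferon-induced genes. An adjusted p under 0.01 gave 859 genes, 0 members and, in the same order, 1, 2, 1 and 0. At an unadjusted p under 0.05 limma gave 6 members and 4 interferon-induced genes, and at an adjusted p under 0.05 edgeR with TMM gave 5 and 4 and DESeq2 5 and 3. With 1 library left out, counts ran from 1301 to 3900 for all genes, 0 to 3 for members, 1 to 4 for peptide supply, 3 to 9 for regulators, 1 to 4 for class I-like molecules and 1 to 5 for interferon-induced genes. The lowest were 1301 genes and 0 members without siAXL 1, and 1518 genes and 1 member (TAP2) without siAXL 2. The cause was not tested.

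Both groups carry replicate numbers 1 and 2, but nothing says that a number marks a shared culture or day. With the replicate number as a block, 7310 genes, 7 members and 7, 13, 6 and 9 list genes passed, on few residual degrees of freedom. Differences between replicates 2 and 1 correlated between the groups at 0.271 over 16064 genes, from 2 pairs only. With 2 libraries per group the spread of single genes is poorly known. Of 510 values for 34 named genes under alternatives, 432 kept their side of the threshold, 43 fell short of it and 35 newly passed it.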
